A study of Mus musculus with 6 samples.

Results

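The core circadian clock genes were examined in primary hepatocytes, the main metabolic cells of the liver, of WT and S100a16KO+/- mice that had all received alcohol. The members were taken by name as the 10 genes of the central transcription loops, Arntl, Clock, Npas2, Per1, Per2, Per3, Cry1, Cry2, Nr1d1 and Nr1d2, out of 25718 genes in the table of the series. All 10 were present in the table, and 9 passed the filter on low counts that left 15957 genes for testing. Npas2 did not pass it. Each genotype had 3 libraries of poly(A)-selected RNA. Male mice aged 8 to 10 weeks were given a control liquid diet for 5 days, a diet with 5% ethanol for 10 days, and then 1 morning gavage of 5 g/kg ethanol, and tissue was taken 9 h later. This schedule was common to both genotypes, so no library comes from mice without alcohol. Hepatocytes were isolated by perfusing the liver with collagenase. Whether they were held in culture medium before RNA was extracted is not stated for these libraries. In the S100a16KO+/- mice, 1 allele of S100a16 had been deleted with EIIa-Cre, which acts in the early embryo and therefore not in hepatocytes alone, and mice that lost both alleles did not survive. This line was on a mainly C57BL/6 background, and the sample labels name it a knockdown of S100A16.

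The circadian clock is a loop of transcription with a period of about a day that runs in nearly every cell. BMAL1, encoded by Arntl, pairs with CLOCK or with its relative NPAS2 and activates genes that carry E-boxes, among them the period (Per) and cryptochrome (Cry) genes, whose proteins return to the nucleus and repress BMAL1 and CLOCK. A further loop is formed by REV-ERBα and REV-ERBβ, encoded by Nr1d1 and Nr1d2, which repress Arntl, and by the ROR receptors, which activate it from the same DNA element. In liver the loop is set mainly by feeding time and times the transcription of genes of lipid, bile acid and glucose metabolism. Mice were kept under 12 h of light and 12 h of dark, and each genotype was sampled at 1 time after gavage. A shift in the phase of a rhythm and a change in its mean level therefore cannot be told apart in these libraries. The hour at which each mouse was sampled is not given in the sources used here.

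The libraries held between 67658095 and 71807834 estimated counts, and 1 sequenced fragment was taken as about 4 of them. This was inferred from the number of genes per library at 4 counts (931 to 1011), beside those at 3 (495 to 561) and at 5 (244 to 292). A gene at 0 can still hold up to 3 fragments, that is 12 counts or 0.167 to 0.187 CPM (counts scaled to a common library size), a limit that covers counting error only. S100a16 was at 7.67, 8.55 and 9.07 FPKM (fragments scaled to transcript length and library size) in WT and at 3.52, 3.17 and 2.92 FPKM in S100a16KO+/- libraries, or 38.0% of the WT mean (log2 fold change -1.40, SE 0.11, edgeR adjusted p = 4.14e-07). Hepatocyte markers summed to 106892 to 118541 CPM in WT and 105090 to 116131 CPM in S100a16KO+/- libraries (1 of 6 higher, 1 lower). Markers of other cells also differed between the genotypes. Sinusoidal endothelial markers summed to 183 to 190 CPM in WT and 260 to 266 CPM in S100a16KO+/- libraries (5 of 6 higher, 1 lower), stellate cell markers to 34.7 to 38.2 and 62.7 to 69.9 CPM (3 of 5 higher), and erythroid markers to 215 to 252 and 23.4 to 26.3 CPM (5 of 5 lower). Kupffer cell markers summed to 118 to 144 and 137 to 149 CPM (1 of 7 higher), cholangiocyte markers to 2.61 to 3.31 and 1.88 to 2.44 CPM (1 of 3 tested lower), and leukocyte markers to 6.06 to 9.05 and 9.14 to 10.2 CPM (0 of 5 called by edgeR, DESeq2 or limma, and 1 of 5 with an unadjusted p under 0.05). No marker was at 0 in every library. Other liver cells also run a clock, and the part of these other cells in the values below was not tested. In bulk RNA, fewer cells of a type and less RNA per cell cannot be told apart.

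Most of the clock genes differed between the genotypes, in both directions. Per1 and Cry1 were upregulated in S100a16KO+/- hepatocytes, whereas Clock, Per2, Per3, Nr1d1 and Nr1d2 were downregulated. Arntl and Cry2 did not pass the threshold, and Npas2 could not be measured. A gene was called when its adjusted p in edgeR's quasi-likelihood test was under 0.05, with Benjamini-Hochberg adjustment over the 15957 tested genes. By this rule 7 of the 9 tested clock genes were called, beside 22.8% of all tested genes. The 2 higher calls stand beside 11.6% of all tested genes called higher, and the 5 lower calls beside 11.2% called lower. The log2 fold changes of the 9 genes ranged from -0.60 for Per2 to 1.13 for Per1, with a median of -0.23, and the median over all tested genes was 0.01. The criterion of the study, used there with DESeq2, was an unadjusted p under 0.05 and a fold of at least 2. Applied here to the edgeR fit, it called only Per1 among the 9, and 4.52% of all tested genes. On the CPM scale, which is corrected for library composition by TMM (trimmed mean of M values), the libraries of the genotypes did not overlap for any of the 9 genes, which had from 133 (Arntl) to 6181 counts (Nr1d2) in a library. Such a separation was found for 37.9% of all tested genes. On the FPKM scale Cry2 and Nr1d2 overlapped between genotypes and the other 7 did not. The share of all tested genes without overlap was not computed on the FPKM scale.

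**Figure D1:**
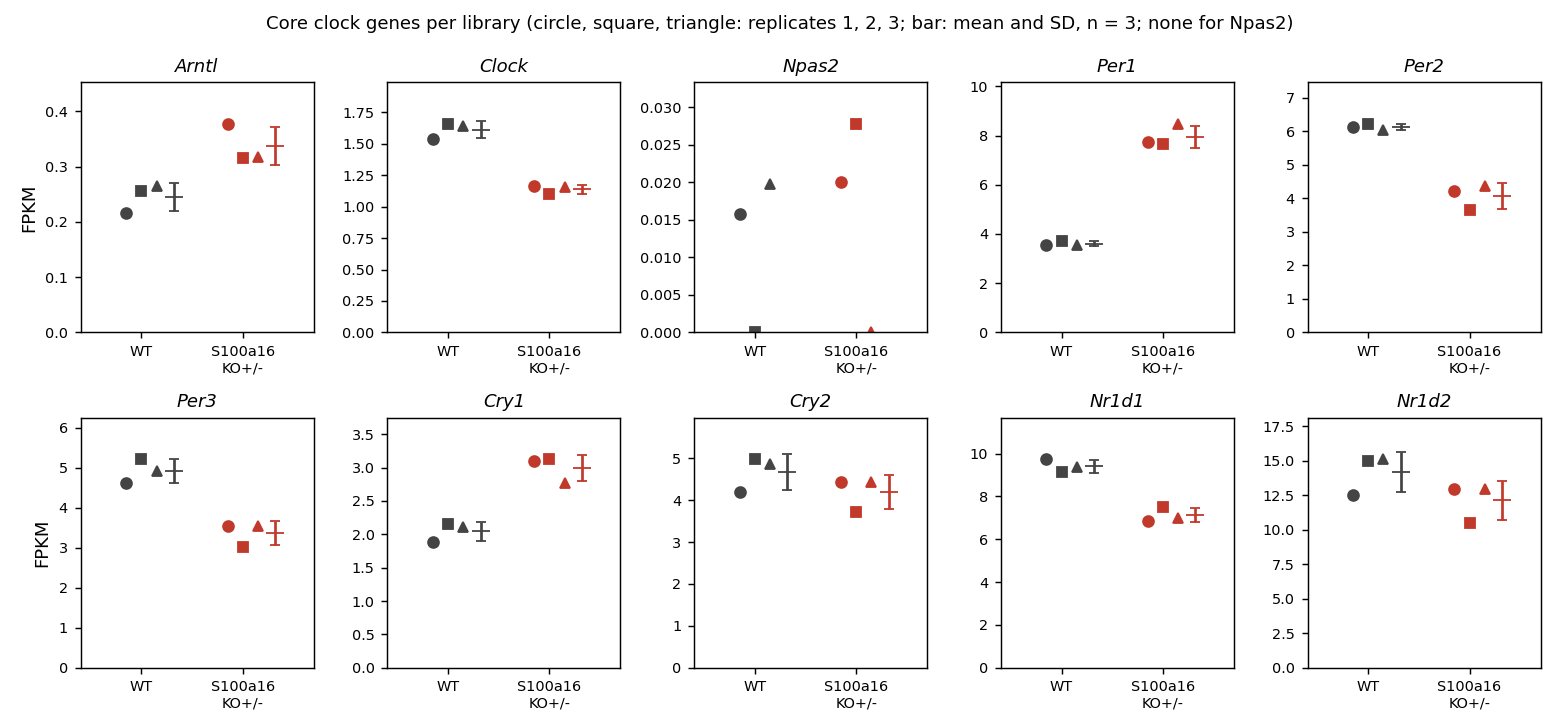
Level of the 10 core clock genes in FPKM (vertical axes, each starting at 0) in the 3 WT and 3 S100a16KO+/- libraries; symbols are libraries and bars are the mean and SD of the 3. Per1, Cry1 and Arntl lie higher in S100a16KO+/- libraries, Clock, Per2, Per3 and Nr1d1 lie lower, and the Npas2 values are at or under the limit of 12 counts.

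Among the activators, Clock fell and Arntl did not pass the test. Clock (ENSMUSG00000029238, chr5:76209868-76304792, GRCm38, minus strand) encodes the DNA-binding partner of BMAL1, which is also an acetyltransferase. Its level was 1.54, 1.66 and 1.65 FPKM in WT and 1.17, 1.10 and 1.15 FPKM in S100a16KO+/- libraries. Every S100a16KO+/- value lay below every WT value, and the mean was 70.6% of WT (1.61 ± 0.0659 against 1.14 ± 0.0355 FPKM, SD, n = 3 each). With a SE of 0.07, the log2 fold change was -0.51 (edgeR adjusted p = 0.000134). Between 1145 and 1738 counts per library stood behind these values.

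Arntl (ENSMUSG00000055116, chr7:113207465-113314126, plus strand), the gene of BMAL1, was low in every library. It had 0.216, 0.255 and 0.265 FPKM in WT and 0.377, 0.316 and 0.318 FPKM in S100a16KO+/- libraries. The 3 S100a16KO+/- values lay above the 3 WT values, but the log2 fold change of 0.45 (SE 0.19) missed the threshold, with an edgeR adjusted p of 0.105 and an unadjusted p of 0.0310. Arntl rested on 133 to 216 counts per library, about 33 to 54 fragments, the fewest of the 9 tested members, and its SE was the largest among them. Npas2 (ENSMUSG00000026077, chr1:39193731-39363236, plus strand), whose protein can take the place of CLOCK, had 7, 0 and 8 counts in WT and 8, 11 and 0 counts in S100a16KO+/- libraries. All 6 values are at or under the limit of 12 counts, so a difference in Npas2 was not detectable at this depth.

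Arntl is the textbook target of the REV-ERB and ROR receptors, and its promoter is shown for the elements they read. RefSeq promoter sequence on GRCm38.p6, from 250 bases before to 50 bases after each annotated start, was available for 9 of the 10 genes in 13 windows, all but Per2. These were searched on both strands for the core of the ROR element, TNGGTCA, which occurs in 10.96% of the 32851 windows of all genes. In Arntl it was found at 200 and 181 bases before the first start, and again 30 bases after a second start. The match at 200 bases overlaps a CCAAT box. The stretches are given from 5′ to 3′ on the strand of the gene, at chr7:113207245-113207310 and chr7:113207531-113207557, with the matches in capitals.
Arntl, upstream: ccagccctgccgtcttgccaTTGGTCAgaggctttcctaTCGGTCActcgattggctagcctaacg
Arntl, after the second start: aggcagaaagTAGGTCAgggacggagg

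The period genes moved in opposite directions, with Per1 higher and Per2 and Per3 lower in S100a16KO+/- hepatocytes. Per1 (ENSMUSG00000020893, chr11:69095217-69109960, plus strand), an immediate responder to glucocorticoid and cAMP signals as well as a clock repressor, had 3.56, 3.71 and 3.53 FPKM in WT and 7.75, 7.64 and 8.47 FPKM in S100a16KO+/- libraries. The lowest S100a16KO+/- value was above the highest WT value by more than the whole spread of either genotype. Its mean rose 2.21-fold, from 3.60 ± 0.0942 to 7.96 ± 0.449 FPKM (SD, n = 3 each), with a log2 fold change of 1.13 (SE 0.06) and an edgeR adjusted p of 1.09e-08.

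Per2 (ENSMUSG00000055866, chr1:91415982-91459324, minus strand), the period protein that scaffolds the repressor complex, had 6.14, 6.22 and 6.04 FPKM in WT and 4.21, 3.64 and 4.36 FPKM in S100a16KO+/- libraries. The groups did not overlap, and the S100a16KO+/- mean was 66.4% of WT. The log2 fold change was -0.60 (SE 0.07, edgeR adjusted p = 1.16e-05). Per3 (ENSMUSG00000028957, chr4:151003652-151044665, minus strand), the period gene whose loss has the mildest effect on the rhythm of mice, was at 4.62, 5.20 and 4.92 FPKM in WT and 3.53, 3.01 and 3.55 FPKM in S100a16KO+/- libraries. It fell to 68.4% of WT, again without overlap (log2 fold change -0.56, SE 0.06, edgeR adjusted p = 7.01e-06).

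Among the cryptochromes, the stronger repressor of the pair rose and the other did not pass the test. Cry1 (ENSMUSG00000020038, chr10:85131700-85185064, minus strand), which holds BMAL1 and CLOCK inactive late in the cycle, had 1.88, 2.15 and 2.11 FPKM in WT and 3.09, 3.12 and 2.77 FPKM in S100a16KO+/- libraries. These groups did not overlap, and the mean rose 1.47-fold (log2 fold change 0.55, SE 0.11, edgeR adjusted p = 0.00225). Cry1 rested on 507 to 793 counts per library. Cry2 (ENSMUSG00000068742, chr2:92403646-92434043, minus strand) had 4.18, 4.97 and 4.86 FPKM in WT and 4.43, 3.72 and 4.42 FPKM in S100a16KO+/- libraries. WT replicate 1 lay below 2 of the S100a16KO+/- values, and the log2 fold change of -0.17 (SE 0.07) had an edgeR adjusted p of 0.103 and an unadjusted p of 0.0300. A noncoding gene on the opposite strand, D930015M05Rik, shares 295 exon bases with Cry2 and had means of 0.295 CPM (WT) and 0.290 CPM (S100a16KO+/-), where Cry2 was at 33.0 and 29.5 CPM.

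The E-box and the D-box are shown for the repressor genes that moved, since BMAL1 and CLOCK bind the former and the factors of the Dbp family the latter. The E-box CACGTG, found in 7.15% of all windows, was in the windows of Per1, 166 bases before the annotated start at position 69098949, and of Cry1, 60 bases before the start. Of the other members with a window, none held it. The D-box TTATGTAA, found in 0.938% of all windows, was in that of Per3 alone among the members, at 205 and 158 bases before the start. A TNGGTCA core followed on the opposite strand of Per3 at 118 bases and of Cry2 at 133 bases, where it reads TGACCAA and overlaps a CCAAT box. The cAMP element TGACGTCA, found in 1.79% of all windows, was in none of the 13. The stretches run 5′ to 3′ on the strand of the gene with the matches in capitals, at chr11:69098763-69098808 for Per1, chr10:85185089-85185134 for Cry1 and chr4:151044757-151044890 for Per3. A match is a run of letters and was not tested as a binding site.
Per1: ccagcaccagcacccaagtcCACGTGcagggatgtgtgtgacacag
Cry1: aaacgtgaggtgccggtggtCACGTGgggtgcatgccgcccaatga
Per3: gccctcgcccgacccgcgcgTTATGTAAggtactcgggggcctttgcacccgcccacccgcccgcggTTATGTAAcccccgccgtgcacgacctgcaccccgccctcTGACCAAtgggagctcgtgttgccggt

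**Figure D2:**
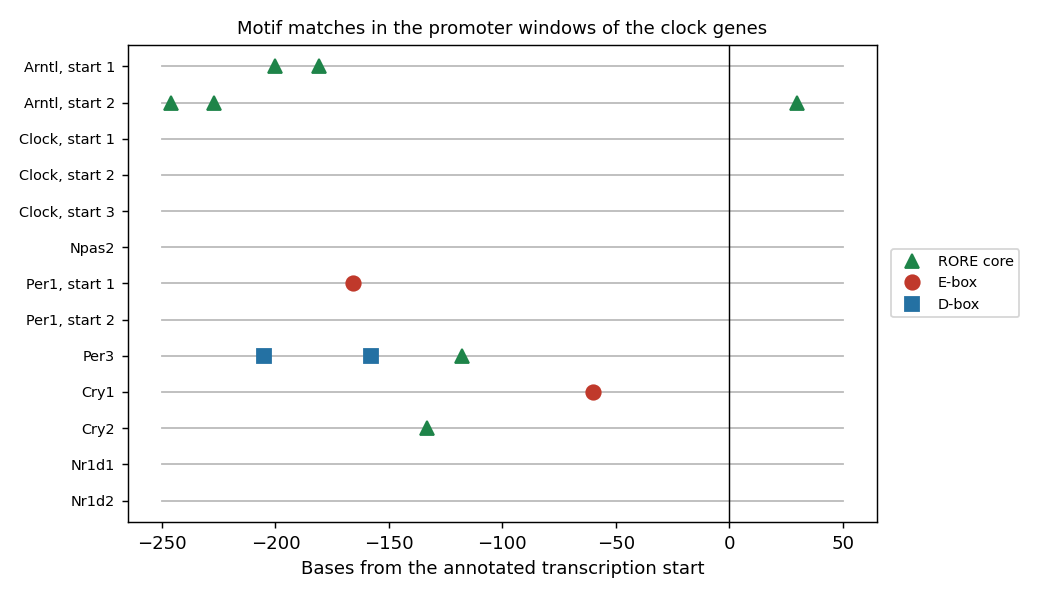
Matches to the E-box, D-box and ROR element core in the 13 promoter windows of 9 clock genes, by distance in bases from the annotated transcription start (horizontal axis, from 250 before to 50 after). Per1 and Cry1 each hold 1 E-box, Per3 holds 2 D-boxes, and the ROR element core lies in Arntl, Cry2 and Per3.

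Both REV-ERB genes were lower in S100a16KO+/- hepatocytes. Nr1d1 (ENSMUSG00000020889, chr11:98767932-98775333, minus strand), a haem-binding receptor that represses Arntl and lipid genes of the liver by day, had 9.73, 9.13 and 9.37 FPKM in WT and 6.86, 7.52 and 7.01 FPKM in S100a16KO+/- libraries. It fell to 75.8% of WT with no overlap (log2 fold change -0.41, SE 0.08, edgeR adjusted p = 0.00262). Its 3′ end overlaps Thra, the gene of thyroid hormone receptor alpha, which lies on the opposite strand and shares 263 exon bases. Thra itself had means of 7.55 CPM (WT) and 6.74 CPM (S100a16KO+/-) with a log2 fold change of -0.16 (edgeR adjusted p = 0.417), and Nr1d1 at 32.5 and 24.5 CPM. The libraries were made with a strand-marking protocol, and whether the authors counted by strand is not given in the sources used here.

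Nr1d2 (ENSMUSG00000021775, chr14:18204054-18239127, minus strand), its close relative, was the most abundant of the 10 genes per length, at 12.5, 15.0 and 15.1 FPKM in WT and 12.9, 10.5 and 13.0 FPKM in S100a16KO+/- libraries. On this scale WT replicate 1 lay below 2 of the S100a16KO+/- values. On the TMM-corrected CPM scale the values were 79.9, 87.8 and 90.0 in WT and 76.5, 67.2 and 75.2 in S100a16KO+/- libraries, without overlap. The log2 fold change of -0.23 (SE 0.07) had an edgeR adjusted p of 0.0195. This call was lost without WT replicate 2 (adjusted p = 0.0786), without WT replicate 3 (0.0949) and without S100a16KO+/- replicate 2 (0.0627), and with limma on log2(FPKM + 1) (0.223). Of the 31-base words in the annotated transcripts of Nr1d2, 9.51% also occur in the gene AC170187.1, and reads there could have been split between them.

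**Figure D3:**
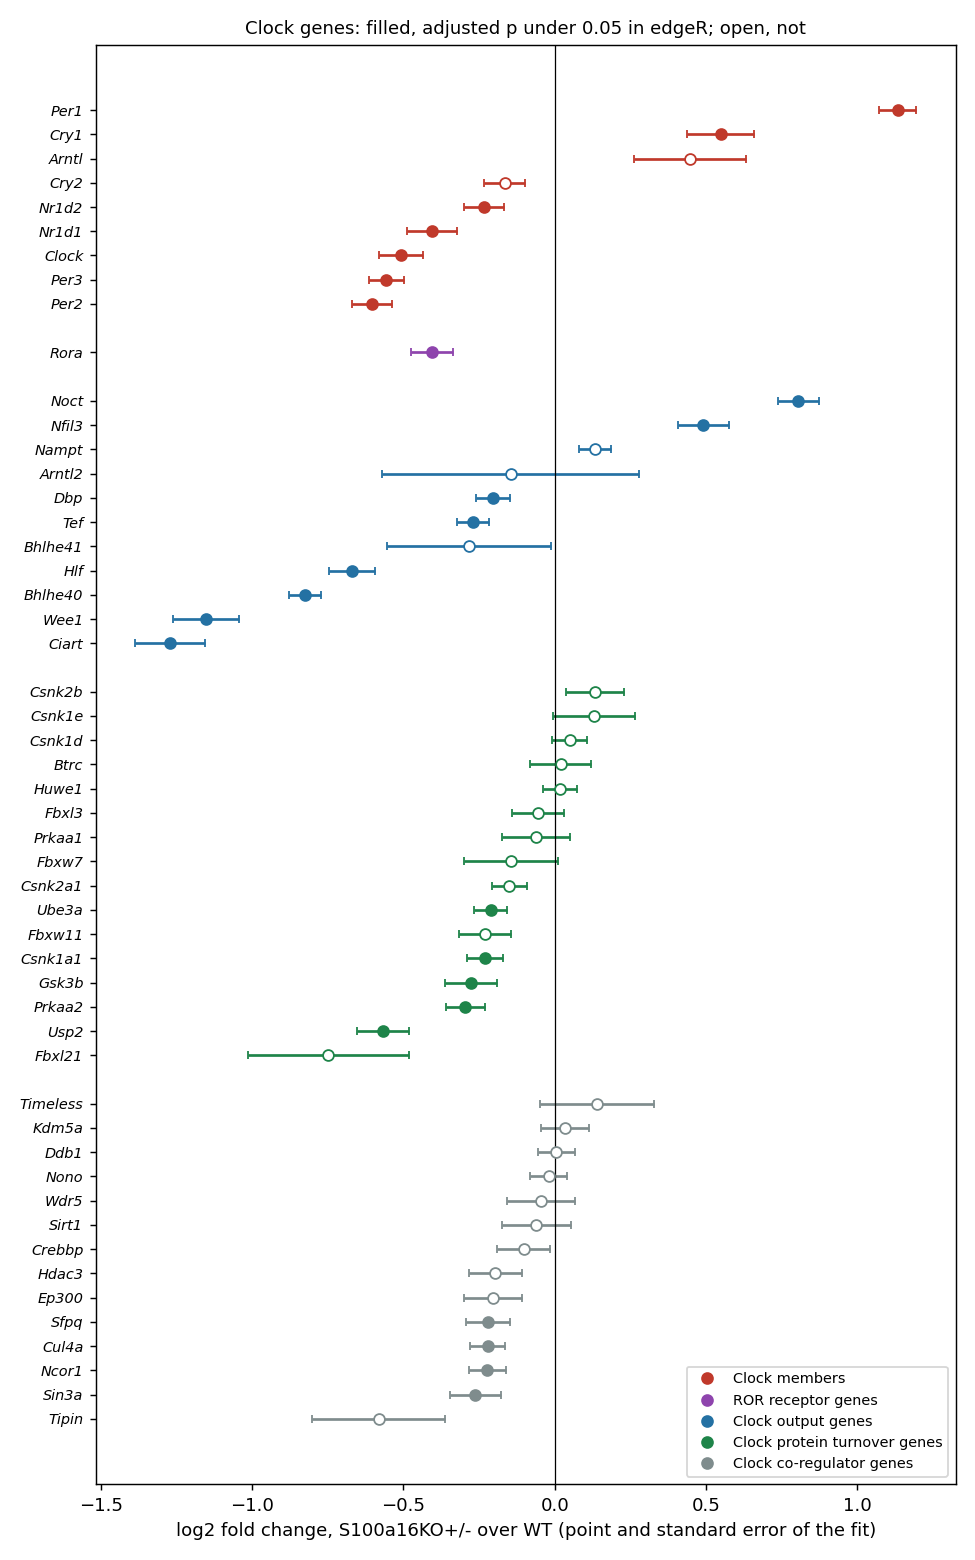
log2 fold change of S100a16KO+/- over WT with the standard error of the edgeR fit (horizontal axis) for the tested core clock genes and the reported genes of 4 further clock lists, with filled points for an adjusted p under 0.05. The core genes run from -0.60 (Per2) to 1.13 (Per1), the output genes from -1.27 (Ciart) to 0.81 (Noct), and the called turnover and co-regulator genes shown all lie below 0.

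The order of the levels differed between the genotypes chiefly in the place of Per1. In WT hepatocytes the order by mean FPKM was Nr1d2, Nr1d1, Per2, Per3, Cry2, Per1, Cry1, Clock, Arntl and Npas2. Only Per3 and Cry2 overlapped among these neighbours (4.92 ± 0.292 and 4.67 ± 0.427 FPKM). In S100a16KO+/- hepatocytes Per1 stood in place 2, against place 6 in WT, between Nr1d2 and Nr1d1 and without overlap with either. Cry2 and Per2 then overlapped, at 4.19 ± 0.409 and 4.07 ± 0.381 FPKM, as did Per3 and Cry1, at 3.36 ± 0.306 and 3.00 ± 0.195 FPKM (SD, n = 3). Clock, Arntl and Npas2 closed the order in both genotypes.

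Ratios taken within a library do not depend on how libraries are scaled, and are given as values with no test, since an exact permutation of 3 against 3 libraries cannot go below p = 0.1 (two-sided). The log2 ratio of Per1 to Per2 in FPKM was -0.79, -0.75 and -0.77 in WT and 0.88, 1.07 and 0.96 in S100a16KO+/- libraries. Per2 thus exceeded Per1 in each WT library and Per1 exceeded Per2 in each S100a16KO+/- library, a difference of 1.74 between the mean log2 ratios. The log2 ratio of Cry1 to Cry2 was -1.16, -1.21 and -1.21 in WT and -0.52, -0.25 and -0.68 in S100a16KO+/- libraries. Cry2 stayed the higher of the pair in all 6 libraries, with a smaller gap in the S100a16KO+/- ones.

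Nr1d1 exceeded Arntl, the gene its protein represses, by 45.0, 35.8 and 35.4-fold in FPKM in WT and by 18.2, 23.8 and 22.1-fold in S100a16KO+/- libraries. The genotypes did not overlap in this ratio, and the mean log2 ratio of Arntl to Nr1d1 was higher by 0.86 in S100a16KO+/- hepatocytes. The log2 ratio of Arntl to Dbp, a direct target of BMAL1 and CLOCK, was -6.38, -6.21 and -6.23 in WT and -5.43, -5.64 and -5.78 in S100a16KO+/- libraries, again without overlap. Both ratios rest on the few counts of Arntl. The log2 ratio of Nr1d1 to Nr1d2 overlapped between genotypes, with -0.36, -0.71 and -0.69 in WT and -0.91, -0.49 and -0.89 in S100a16KO+/- libraries.

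**Figure D4:**
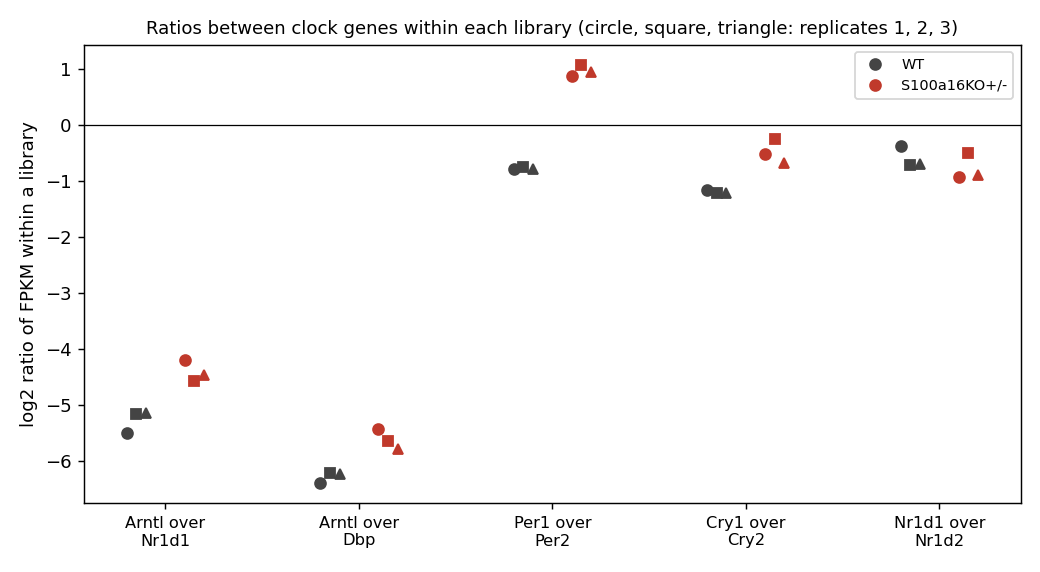
log2 ratio of FPKM between pairs of clock genes within each of the 6 libraries (vertical axis), WT in grey and S100a16KO+/- in red. Per1 over Per2 lies at -0.79 to -0.75 in WT and 0.88 to 1.07 in S100a16KO+/- libraries, Arntl over Nr1d1, Arntl over Dbp and Cry1 over Cry2 are also apart, and Nr1d1 over Nr1d2 overlaps.

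Replicates of a genotype lay close together. The coefficient of variation of CPM over 3 libraries had a median of 4.64% for the 9 tested members in WT (0.526% to 7.72%) and 5.17% in S100a16KO+/- hepatocytes (2.32% to 10.7%), beside medians of 10.3% and 11.0% over all tested genes. The members were not matched to other genes of their level. Nr1d1 and Nr1d2 deviated in opposite directions. Nr1d1 was highest in WT replicate 1 and in S100a16KO+/- replicate 2, by 0.12 and 0.15 above its genotype mean of log2(CPM + 1), while Nr1d2 was lowest in the same libraries, by -0.10 and -0.12, and Cry2 by -0.08 in each. These are the libraries with the highest mitochondrial share of counts in their genotype, 21.1% and 20.1%, beside 17.0% to 18.6% in the other 4. Without them the log2 fold changes were -0.43 for Nr1d1, -0.23 for Nr1d2 and 1.15 for Per1. In that fit edgeR called 7 of 9 members, beside 3412 of the 16191 genes tested.

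**Figure D5:**
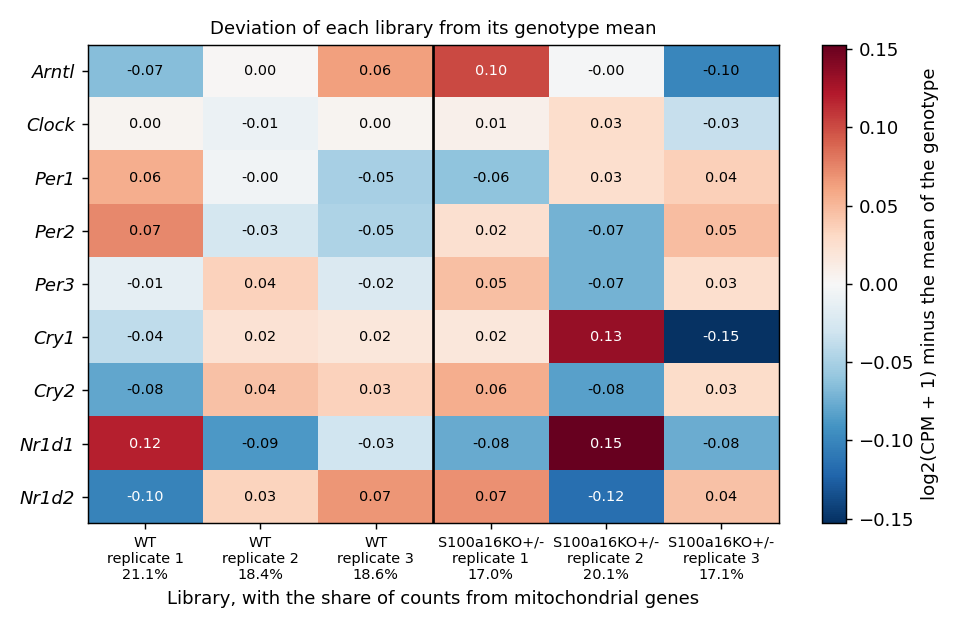
Deviation of log2(CPM + 1) from the genotype mean for the 9 tested core clock genes (rows) in the 6 libraries (columns, with their mitochondrial share of counts). Nr1d1 is highest and Nr1d2 lowest within their genotype in WT replicate 1 and S100a16KO+/- replicate 2, the libraries with mitochondrial shares of 21.1% and 20.1%.

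The genes around the core loops were taken from 4 lists. Among the ROR receptors, Rora was lower in S100a16KO+/- hepatocytes. Rora, which activates Arntl from the element that REV-ERB binds, was at 59.2, 57.4 and 54.2 CPM in WT and 40.8, 40.7 and 47.5 CPM in S100a16KO+/- libraries. The groups did not overlap (log2 fold change -0.41, SE 0.07, edgeR adjusted p = 0.00063).

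The output genes held the largest falls among the called clock genes. Of the 11 genes in this list, 2 rose and 6 fell (72.7% called, beside 22.8% of all tested genes), with a median log2 fold change of -0.27. Ciart, which encodes the repressor CHRONO that binds BMAL1, was at 12.8, 12.6 and 11.8 CPM in WT and at 4.65, 5.71 and 5.05 CPM in S100a16KO+/- libraries. This fall to 41.4% of the WT mean (log2 fold change -1.27, SE 0.11, edgeR adjusted p = 1.75e-06) was the largest of all clock genes tested here. Wee1, the kinase that delays mitosis and a rhythmic gene of the liver, fell from 14.2 ± 0.117 to 6.39 ± 0.795 CPM (SD, n = 3, log2 fold change -1.15, edgeR adjusted p = 3.02e-06). Bhlhe40, whose protein DEC1 competes for E-boxes, was at 165, 168 and 160 CPM in WT and 89.6, 92.5 and 96.0 CPM in S100a16KO+/- libraries. Its libraries were widely apart, with a log2 fold change of -0.83 (SE 0.05, edgeR adjusted p = 4.64e-08). Ciart and Wee1 met the criterion of the study, and Bhlhe40 did not reach its fold limit.

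Noct, which encodes nocturnin, a rhythmic phosphatase of NADP(H), rose from 30.3 ± 1.73 to 53.0 ± 4.06 CPM (SD, n = 3, log2 fold change 0.81, edgeR adjusted p = 9.54e-07). Of the factors that act on the D-box, the activators Dbp, Tef and Hlf were lower, with log2 fold changes of -0.20, -0.27 and -0.67 and edgeR adjusted p of 0.0159, 0.00159 and 1.61e-05, and the repressor Nfil3 was higher, by 0.49 (edgeR adjusted p = 0.000677). Dbp was at 63.7, 61.2 and 65.2 CPM in WT and 53.3, 55.8 and 56.0 CPM in S100a16KO+/- libraries. Its call was lost in 5 of 18 alternatives, among them without WT replicate 3 (edgeR adjusted p = 0.0752) or S100a16KO+/- replicate 1 (0.0734). Tef lost its call in 2 of 18 alternatives. Nampt (log2 fold change 0.13, edgeR adjusted p = 0.0827), Bhlhe41 (-0.28, 0.526) and Arntl2 (-0.15, 0.857) did not pass the test. Tef, Hlf and Nfil3 were named after their values were seen.

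Of the genes that act on the stability of clock proteins, 5 of 16 were called (31.2%, all lower, median log2 fold change -0.15), and of the co-regulators 5 of 15 (33.3%, all lower, median -0.20), beside the 22.8% of all tested genes. Usp2, a rhythmic deubiquitinase of clock proteins, was at 24.1, 25.0 and 23.5 CPM in WT and 14.6, 17.5 and 16.9 CPM in S100a16KO+/- libraries. It had the largest change of these called genes (log2 fold change -0.57, SE 0.09, edgeR adjusted p = 0.000222). Prkaa2, a catalytic subunit of AMPK, the kinase that marks CRY1 for degradation, fell by 0.30 on the log2 scale (edgeR adjusted p = 0.00399), Ube3a, a ubiquitin ligase, by 0.21 (0.0111), Csnk1a1, a casein kinase, by 0.23 (0.0111) and Gsk3b by 0.28 (0.0340). The call of Csnk1a1 was lost without WT replicate 3 (adjusted p = 0.0643), and that of Gsk3b without WT replicate 1 (0.0924), WT replicate 3 (0.118), S100a16KO+/- replicate 1 (0.0961) or S100a16KO+/- replicate 2 (0.0876). With library totals in edgeR, Ube3a (adjusted p = 0.0745) and Csnk1a1 (0.0813) also lost their calls. With limma on log2(FPKM + 1) only Usp2 kept its call (adjusted p = 0.00808), and Ube3a (0.230), Prkaa2 (0.110) and Csnk1a1 (0.155) lost theirs. Csnk1d and Csnk1e, the casein kinases that phosphorylate PER proteins, had log2 fold changes of 0.05 and 0.13 and were not called (edgeR adjusted p = 0.614 and 0.567).

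Of the co-regulators, Ncor1, the corepressor that REV-ERB recruits with HDAC3, fell by 0.22 on the log2 scale (edgeR adjusted p = 0.0170), and Cul4a, a scaffold of ubiquitin ligases, by 0.22 (0.0139). The call of Ncor1 was lost without WT replicate 1 (adjusted p = 0.0663), WT replicate 3 (0.0623) or S100a16KO+/- replicate 3 (0.0869), and that of Cul4a without WT replicate 2 (0.0802). With limma on log2(FPKM + 1) both lost their calls (adjusted p = 0.0924 for Ncor1 and 0.195 for Cul4a). Sin3a fell by 0.26 (0.0386) and Sfpq by 0.22 (0.0404), and both calls were lost with the replicate number as a block (edgeR adjusted p = 0.0748 and 0.0612). With 1 library left out, Sin3a kept its call only when S100a16KO+/- replicate 3 was the library removed (adjusted p of 0.0523 to 0.131 otherwise), and Sfpq only when it was S100a16KO+/- replicate 2 (0.0539 to 0.185 otherwise). Hdac3 itself was not called (log2 fold change -0.20, edgeR adjusted p = 0.128). Gsk3b, Sfpq, Csnk1d, Csnk1e and Hdac3 were named after their values were seen. With 1 library left out at a time, the called co-regulators numbered 2 to 4 and the called turnover genes 3 to 5. Over all genes these fits called 2734 to 3302.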

How the data were processed

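The authors deposited 1 table with 2 values per gene and library. Estimated counts, as the authors deposited them, are whole numbers not scaled for library size, and FPKM values were scaled by the authors for transcript length and library size. The submitters' processing notes name cutadapt 1.9, HISAT2 2.0.4, UMI-tools, StringTie 1.3.4d, DESeq2 and edgeR and the build mm10 (GRCm38), with no further settings. Positions are those of the table, and all 10 members had the same start and end in GENCODE M21. Libraries were grouped by the genotype label. The labels do not say whether replicates came from separate mice, and P values measure only the spread between these libraries. No batch or date is given.

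Counts were rounded and tested with edgeR 4.0.16 in R 4.3.3 (TMM, filterByExpr, robust quasi-likelihood fit, two-sided, no covariate, Benjamini-Hochberg adjustment). DESeq2 1.42.0, the tool of the paper's methods, served as an alternative. TMM factors were applied to CPM values. Alternatives were a replicate block, other scalings, filters and thresholds, limma 3.58.1 (voom, and with trend on log2(FPKM + 1) and log2(FPKM + 0.1)), counts divided by 4, TMM-scaled CPM for level ratios, and leaving out libraries. Library ratios from estimated counts were added after seeing the data. Named genes are the members, S100a16, the 4 genes with the smallest p in each further list, Dbp, and the 3 genes with at least 1 CPM closest in profile to Arntl and to Nr1d1; 2 genes of the lists are not reported here. The members, lists and tests were chosen with earlier results of these data known. Promoters and transcripts came from RefSeq (GRCm38.p6) and GENCODE M21.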

Additional observations from a re-analysis of the deposited data

How the results depend on the processing

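Under 19 alternatives the number of called clock genes stayed at 6 or 7, with 2 higher in each and 4 or 5 lower. Over all genes, 2229 to 3865 were called under the same alternatives, with 9054 to 25718 genes tested. None of the genes followed over the alternatives changed direction. Nampt, Bhlhe41, Arntl2, Csnk1d, Csnk1e, Hdac3 and Thra were not followed over them. Only Nr1d2 lost its call among the members, at an adjusted p under 0.01, with library totals (adjusted p = 0.134), limma on log2(FPKM + 1) (0.223) and log2(FPKM + 0.1) (0.219), and without WT replicate 2, WT replicate 3 or S100a16KO+/- replicate 2. Per1 ranged from 0.96 to 1.17, Cry1 from 0.39 to 0.63, Clock from -0.52 to -0.29, Per2 from -0.63 to -0.50, Per3 from -0.58 to -0.44 and Nr1d1 from -0.49 to -0.34. Arntl ranged from 0.10 to 0.51 over 17 alternatives and Cry2 from -0.21 to -0.12, neither called in any. For Per1, Cry1, Clock, Per2, Per3 and Arntl the smallest change came from limma on log2(FPKM + 1), where the added 1 shrinks folds. In the other fits Clock ranged from -0.52 to -0.47 and Arntl from 0.34 to 0.51. Arntl was not tested at a mean FPKM of at least 1. With limma on log2(FPKM + 1), 0 members met the criterion of the study, where the log2 fold change of Per1 was 0.96 and 6 members still had an adjusted p under 0.05.

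Called output genes numbered 6 to 9 over the 19 alternatives, against 8 in the main fit. The co-regulator and turnover lists depended more on the settings. Called co-regulators were 3 with the block and upper-quartile scaling, 2 with library totals, 1 with both limma fits and at an adjusted p under 0.01, and 2 to 4 with 1 library left out. Called turnover genes were 2 with library totals and at an adjusted p under 0.01, 1 with both limma fits, and 3 to 5 with 1 library left out. Over all genes, limma called 2379 with log2(FPKM + 1) and 2335 with log2(FPKM + 0.1), of which 1048 and 1030 were lower, and 2229 passed an adjusted p under 0.01 (1155 higher, 1074 lower). The criterion of the study was met by 264 genes at a mean FPKM of at least 1, and by 140 and 472 genes with the limma fits. A mean FPKM of at least 1 left 9054 genes for testing, and a value added before the log shrinks the fold of low genes. The part of each in these counts was not tested. Of the called genes over all genes, 50.9% were higher with TMM and 58.9% with upper-quartile scaling. Same-numbered libraries of the genotypes did not deviate together (r = -0.0472, -0.0237 and 0.0518 across genes), so the numbers were not taken as pairs. The replicate block called 3082 genes and 7 members. Npas2 was at or under the limit of 12 counts, and Arntl had the fewest counts of the tested members. The part of depth in the result of Arntl was not tested.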

Other observations

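Profiles over the 6 libraries were compared by the root mean square difference in centred log2(CPM + 1), among 11929 genes with at least 1 CPM. The added 1 shrinks the differences of low genes such as Arntl, with means of 2.09 CPM (WT) and 2.84 CPM (S100a16KO+/-). Closest to Arntl were Dennd5a, a regulator of membrane traffic (difference 0.0254, log2 fold change 0.35), Lrp10 (0.0294, 0.31) and 2700097O09Rik (0.0297, 0.38). Those closest to Nr1d1 were mt-Ta, a mitochondrial transfer RNA (0.0236, log2 fold change -0.37), Cox8a, a subunit of cytochrome c oxidase (0.0287, -0.42), and Cdc34, a ubiquitin-conjugating enzyme (0.0334, -0.37). Cox8a was at 156, 130 and 138 CPM in WT and 101, 119 and 96.9 CPM in S100a16KO+/- libraries. Like Nr1d1, it was highest in WT replicate 1 and S100a16KO+/- replicate 2, the libraries with mitochondrial shares of 21.1% and 20.1%. Cox8a was picked for its likeness to Nr1d1, so a peak in the same libraries follows from that choice. The part of the mitochondrial share in the profile of Nr1d1 was not tested.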
